A study of Mus musculus with 15 samples.

Results

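Motor neuron identity transcription factors and the enzyme that marks one of their columns were followed through 15 RNA-seq libraries of mouse lumbar motor neurons. The members were taken by symbol from the gene table: Isl1, Isl2, Mnx1, Lhx3, Lhx4, Lhx1, Foxp1, Ebf2 and Aldh1a2, 9 of 36144 genes. All are transcription factors except Aldh1a2, which encodes an enzyme. The libraries came from motor neurons of segments L1 to L3, traced with a retrograde label and collected by laser capture at postnatal day 6, in 5 groups of 3 biological replicates. All mice were on an FVB background, carried the human SMN2 and SMNΔ7 transgenes, and were of both sexes in equal proportions.

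WT denotes littermates with both Smn alleles (Smn+/+;SMN2;SMNΔ7), and SMA denotes mice without mouse Smn (Smn-/-;SMN2;SMNΔ7), a model of spinal muscular atrophy; both received vehicle. The other 3 groups were SMA mice given a drug by daily intraperitoneal injection from postnatal day 0. MW150, an inhibitor of p38α, was given at 5 mg/kg, Pifithrin-α, an inhibitor of p53, at 2.2 mg/kg, and SMN-C3, which modifies SMN2 splicing, at 3 mg/kg. The number of animals and of captured neurons behind a library is not given in the sources used here. Libraries are named by group and replicate number, such as SMA 1.

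Spinal motor neurons acquire their identity through a combinatorial code of LIM homeodomain proteins. Isl1, Isl2 and Mnx1 (also called Hb9) mark motor neurons in general, whereas Lhx3 and Lhx4 act in newly born motor neurons and persist in the medial column that innervates axial muscle. In the lateral motor column, which innervates the limbs, Foxp1 acts as a Hox cofactor and Aldh1a2 makes retinoic acid, and Lhx1 and Isl1 mark its lateral and medial divisions, respectively.

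The expression values are in TPM, the share of each transcript among all transcripts of a library, which corrects for transcript length and sums to the same total in every library, so that levels can be compared between genes. The depth behind a value is unknown from such tables. Mouse Smn1 lay at 8.97, 16.5 and 23.3 TPM in the WT libraries and at 1.50 TPM or less in the 12 others. The 8 motor neuron markers (among them Chat, Slc18a3 and Prph) summed to 1469.8 to 3853 TPM, and all 8 passed the filter of 1 TPM in at least 3 libraries. Of the 19 interneuron markers, 15 had a mean under 1 TPM, and their sum was 15.4 to 56.5 TPM, most of it from Slc17a6, a vesicular glutamate transporter (mean 22.6 TPM), and Gad1, which makes GABA (mean 4.28 TPM). The 6 sensory neuron markers summed to 393 to 2185 TPM, nearly all of it from Sst (393 to 2184 TPM), and 4 of them had a mean under 1 TPM. The 3 preganglionic markers summed to 2.59 to 22.6 TPM, with Zeb2 at 0.553 to 17.4. Which cells this RNA came from was not tested. Oligodendrocyte genes summed to 488 to 6465 TPM and astrocyte genes to 746 to 1822 TPM. Mitochondrially encoded genes took 21.9% of TPM in WT 1, 20.4% in SMA+Pifithrin-α 3, 12.6% in SMA+Pifithrin-α 2 and 11.3% in SMA+SMN-C3 1. In the remaining 11 libraries they took 3.76% to 7.55%.

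The windows of 200 bases before start sites of Aldh1a2, Foxp1, Lhx1 and Isl1 are shown, because these 4 members had the largest SD within groups on the log2(TPM+1) scale. Sequences are RefSeq's on GRCm38.p6, 5′ to 3′ on the strand of the gene. Capitals mark TAAT, the core of many homeodomain binding sites, on either strand (ATTA is its reverse complement). The windows lie at chr6:99266516-99266715 (minus strand) and chr6:99028299-99028498 (minus strand) for the middle and downstream start of Foxp1, at chr9:71215589-71215788 (plus strand) for Aldh1a2, at chr11:84525535-84525734 (minus strand) for Lhx1 and at chr13:116309689-116309888 (minus strand) for Isl1.
Foxp1 middle start: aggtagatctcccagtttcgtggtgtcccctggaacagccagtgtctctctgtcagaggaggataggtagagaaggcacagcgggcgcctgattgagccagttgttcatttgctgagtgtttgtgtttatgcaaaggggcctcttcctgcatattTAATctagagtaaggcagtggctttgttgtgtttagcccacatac
Foxp1 downstream start: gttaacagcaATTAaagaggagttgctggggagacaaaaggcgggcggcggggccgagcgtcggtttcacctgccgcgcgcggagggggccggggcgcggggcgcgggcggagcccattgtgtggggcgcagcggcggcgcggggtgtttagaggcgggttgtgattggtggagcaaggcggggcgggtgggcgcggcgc
Aldh1a2 start: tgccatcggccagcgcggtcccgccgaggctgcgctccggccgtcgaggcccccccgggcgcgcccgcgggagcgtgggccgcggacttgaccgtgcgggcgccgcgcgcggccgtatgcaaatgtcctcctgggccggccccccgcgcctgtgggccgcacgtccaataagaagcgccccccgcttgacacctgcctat
Lhx1 start: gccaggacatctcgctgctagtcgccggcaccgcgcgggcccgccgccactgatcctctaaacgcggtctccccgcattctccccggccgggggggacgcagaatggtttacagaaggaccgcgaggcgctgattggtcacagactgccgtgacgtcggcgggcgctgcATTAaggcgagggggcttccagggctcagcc
Isl1 start: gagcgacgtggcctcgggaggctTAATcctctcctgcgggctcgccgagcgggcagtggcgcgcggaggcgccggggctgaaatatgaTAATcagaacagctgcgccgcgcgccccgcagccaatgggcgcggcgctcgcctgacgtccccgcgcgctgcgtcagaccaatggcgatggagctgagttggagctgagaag

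The motif TAAT occurred once in each of the 2 Foxp1 windows shown and in the Lhx1 window, and 2 times in the Isl1 window. It was not in the Aldh1a2 window. Of the member windows not shown, that of the Lhx3 start at 26208249 held it 1 time. It was absent before the Lhx3 start at 26206575, the most upstream Foxp1 start and the starts of Lhx4, Mnx1 and Isl2. Over all genes, 47.0% of 32851 start windows of this length held it. AGGTCA, a half-site of nuclear receptors that was searched on both strands, was in none of these member windows, shown or not, and in 11.4% of all windows. The GC content was 77.0% before Aldh1a2, 72.5% before the downstream Foxp1 start, 69.0% before Isl1 and 68.5% before Lhx1, against a median of 53.0% and a 90th percentile of 70.5% over all windows. It was 49.5% before the middle Foxp1 start. In the member windows not shown, it was 73.0% and 65.5% before the Lhx3 starts, 68.5% before Lhx4 and 67.0% before Mnx1. Before Isl2 it was 66.5%, and before the upstream Foxp1 start 57.5%. A match describes the letters of a window and no binding.

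Aldh1a2 had the highest mean level of the members (114 TPM over the 15 libraries) and Isl1 the next (78.1). Isl2 (35.1), Mnx1 (30.7) and Foxp1 (25.2) followed, then Lhx1 (4.05), Lhx4 (3.30), Lhx3 (1.80) and Ebf2 (0.127). Neighbours in this order overlapped across libraries. Isl2 ranged from 16.2 to 55.0 TPM and Mnx1 from 12.8 to 42.1, and Lhx1 (0.276 to 8.33) enclosed the whole range of Lhx4 (1.56 to 5.04). The lowest Isl2 and Mnx1 values lay above the highest Lhx1, Lhx4 and Lhx3 values. Of the 9 members, 8 reached 1 TPM in at least 3 libraries and were tested; Ebf2 did not.

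**Figure D1:**
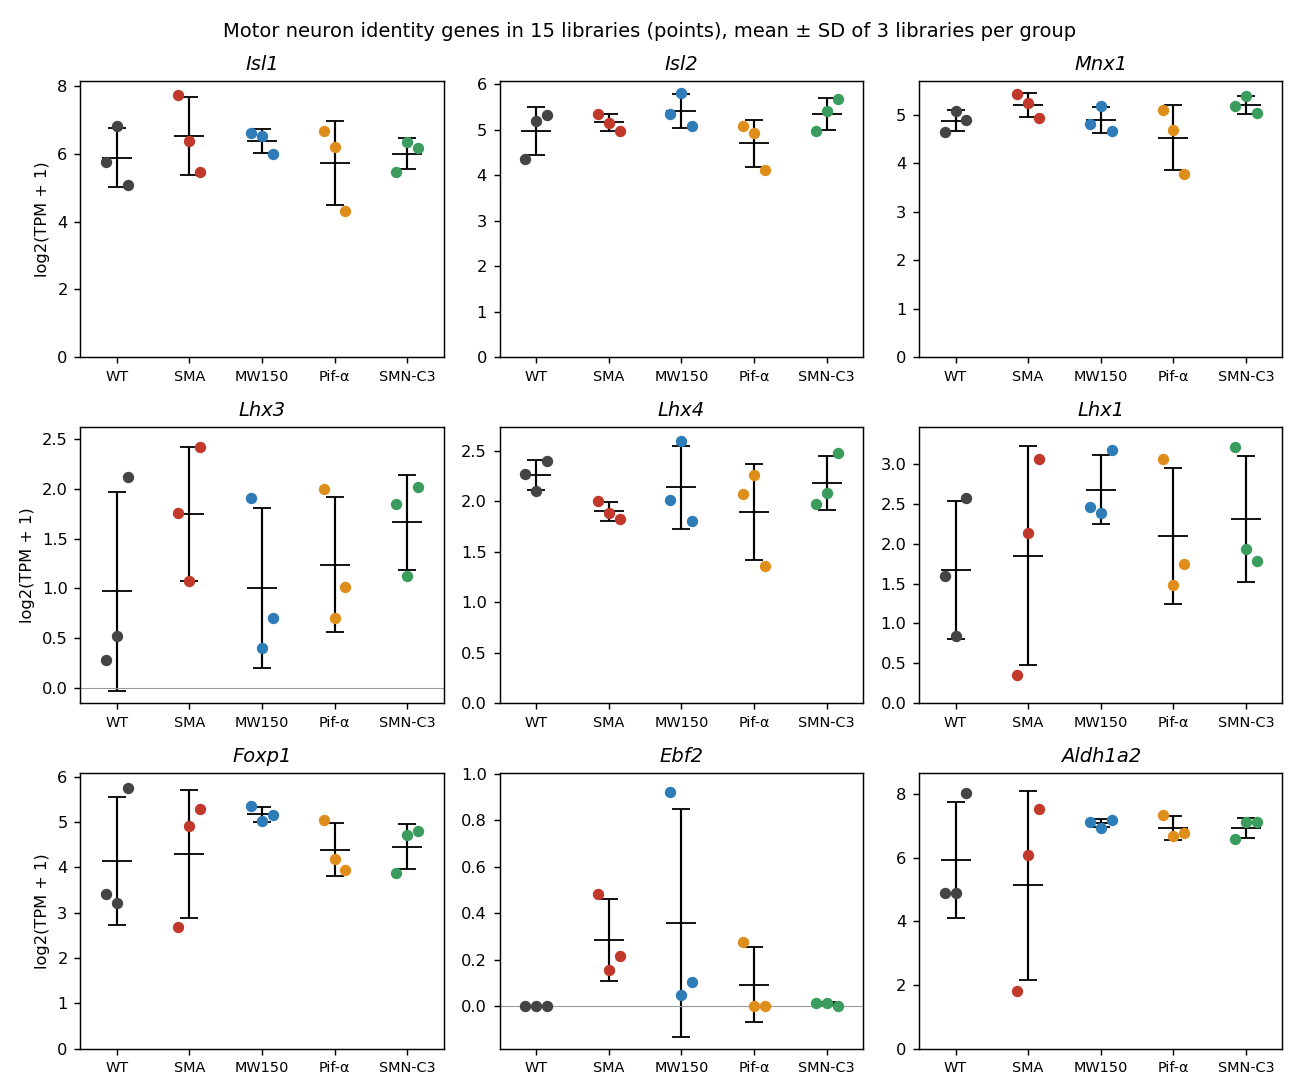
Level of each member as log2(TPM + 1) in every library (points), with the mean and SD of the 3 libraries of each group (bars; MW150, Pif-α and SMN-C3 are treated SMA mice). Isl2 and Mnx1 sit in narrow bands, whereas Aldh1a2 spans 2.51 to 262 TPM within the WT and SMA groups alone, and Ebf2 reaches at most 0.897 TPM.

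The general motor neuron factors came first. Isl1, a LIM homeodomain protein needed for motor neurons to form (chr13:116298281-116309689, minus strand), was at 53.4, 111 and 32.9 TPM in the WT libraries and at 212, 82.2 and 43.2 in SMA. It was at 96.4, 91.8 and 62.0 TPM after MW150, at 101, 71.9 and 19.0 after Pifithrin-α and at 43.4, 80.6 and 71.1 after SMN-C3. SMA 1 was the highest of all 15 libraries and SMA+Pifithrin-α 3 the lowest, and all 5 groups overlapped. The difference between SMA and WT was 0.64 on the log2(TPM+1) scale (95% confidence interval -0.61 to 1.89, limma adjusted p = 0.60), and it was 0.04 without SMA 1.

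Isl2 (chr9:55538672-55546180, plus strand), the close relative of Isl1, was much steadier. It was at 19.6, 35.8 and 39.2 TPM in WT, at 39.9, 34.4 and 30.6 in SMA and at 39.4, 55.0 and 33.0 after MW150. After Pifithrin-α it was at 32.6, 29.2 and 16.2 TPM, and after SMN-C3 at 30.2, 41.5 and 49.8. The 2 lowest values were in WT 1 and SMA+Pifithrin-α 3, the libraries with the highest mitochondrial share. Gm17226 overlaps Isl2 on the other strand, so part of the value may not be told apart from it if the counting did not use strand.

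Mnx1, a homeodomain repressor that keeps interneuron genes off in motor neurons (chr5:29473034-29478470, minus strand), was at 24.2, 33.0 and 28.6 TPM in the WT libraries and at 42.1, 36.7 and 29.6 in SMA. Its values were 27.1, 35.3 and 24.3 TPM after MW150, 33.3, 24.9 and 12.8 after Pifithrin-α and 35.6, 40.9 and 31.7 after SMN-C3. The lowest was again SMA+Pifithrin-α 3. Between SMA+Pifithrin-α and SMA, the Mnx1 difference was -0.67 on the log2(TPM+1) scale (95% confidence interval -1.33 to -0.01, limma adjusted p = 0.46). The median of all tested genes in that comparison was -0.22, and the Mnx1 difference was -0.30 without SMA+Pifithrin-α 3.

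Isl2 divided by Mnx1 lay between 0.811 (WT 1) and 1.57 (SMA+SMN-C3 3), a 1.93-fold range. No background of gene pairs outside the members was computed for such ratios. Isl1 divided by Isl2 ran from 0.839 in WT 3 to 5.32 in SMA 1. Isl2 and Mnx1 were inversely related to the mitochondrial share by Pearson's r, not by Spearman's rho, and Isl1 missed the threshold by both. Over the 15 libraries Pearson's r with that share was -0.85 for Isl2 (adjusted permutation p = 0.0040 over the 8 members, Spearman's rho -0.65, adjusted p = 0.062), -0.73 for Mnx1 (adjusted p = 0.017, rho -0.62, adjusted p = 0.062) and -0.60 for Isl1 (adjusted p = 0.057, rho -0.50, adjusted p = 0.17). Without the 2 libraries farthest from the median share, r was -0.48, -0.41 and -0.44, so the relation rests largely on those libraries. In a fit with that share as a term no member was called. Values without mitochondrially encoded genes, and without the 2 libraries of highest mitochondrial share, are given at the end. The part of the mitochondrial share in the values was not tested further.

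The medial column factors were low. Lhx3 (chr2:26200212-26208289, minus strand), which pairs with Isl1 in a complex that specifies motor neurons, was at 0.212, 0.432 and 3.35 TPM in the WT libraries and at 2.38, 1.10 and 4.37 in SMA. It was at 2.77, 0.317 and 0.625 TPM after MW150, at 3.00, 0.629 and 1.02 after Pifithrin-α and at 2.60, 1.18 and 3.06 after SMN-C3. It was under 1 TPM in WT 1 and WT 2, in SMA+MW150 2 and SMA+MW150 3, and in SMA+Pifithrin-α 2. Nearly all of this RNA was assigned to 2 transcripts with a retained intron, Lhx3-203 and Lhx3-204, which held a median of 100.0% of the gene. The protein-coding transcripts reached at most 0.354 TPM and were listed at 0 in 8 libraries; SMA+MW150 2 was the one library in which they held all of the gene (0.317 TPM). Gm27196 overlaps Lhx3 on the other strand.

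Lhx4, the close relative of Lhx3 (chr1:155698031-155751684, minus strand), was at 3.82, 3.30 and 4.28 TPM in the WT libraries and at 3.00, 2.68 and 2.53 in SMA. The 2 groups did not overlap, and Lhx4 was the one member of 8 tested for which this held in any comparison; 18.3% of all tested genes did not overlap between SMA and WT. The difference was -0.36 on the log2(TPM+1) scale (95% confidence interval -1.08 to 0.37, limma adjusted p = 0.61). After MW150 the values were 3.04, 5.04 and 2.49 TPM, after Pifithrin-α 3.19, 3.80 and 1.56, and after SMN-C3 2.93, 3.23 and 4.57, which overlapped with both SMA and WT. In the 6 other comparisons no member separated the groups, against 10.9% of all genes for SMA+MW150 and SMA, 15.3% for SMA+Pifithrin-α and SMA, 20.7% for SMA+SMN-C3 and SMA, and 19.9%, 6.87% and 12.8% for the same treatments and WT.

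Ebf2, a factor of the COE family (chr14:67233292-67430918, plus strand), was listed at 0 in 6 libraries, among them all 3 of WT, and had its highest value, 0.897 TPM, in the MW150 group. Its group means of 0 to 0.335 TPM are too low to compare.

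The lateral column genes differed widely between libraries of the WT and SMA groups. Aldh1a2 (chr9:71215789-71296243, plus strand) was at 28.3, 28.5 and 262 TPM in the WT libraries and at 2.51, 66.7 and 181 in SMA. The 3 treated groups were narrow beside these: 137, 122 and 145 TPM after MW150, 161, 100.3 and 109 after Pifithrin-α, and 94.3, 137 and 138 after SMN-C3. The highest WT library thus exceeded the lowest 9.25-fold and the highest SMA library the lowest 72.2-fold, against 1.18-fold, 1.60-fold and 1.47-fold in the treated groups. All treated libraries lay inside the range of the WT and of the SMA group. Genes outside the members also differed in this way. Hoxc10, chosen after its values were seen, spanned 3.18-fold in WT, 2.05-fold in SMA and 1.10-fold, 1.61-fold and 1.22-fold in the treated groups. For Crabp1, a retinoid gene, these were 3.28-fold, 4.44-fold, 1.13-fold, 4.53-fold and 1.54-fold. The share of all genes with narrower treated groups was not computed.

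Differences of Aldh1a2 between groups were -0.80 for SMA and WT (95% confidence interval -2.94 to 1.35, adjusted p = 0.70), 1.95 for SMA+MW150 and SMA (-0.20 to 4.09, adjusted p = 1.0), 1.79 for SMA+Pifithrin-α and SMA (-0.35 to 3.93, adjusted p = 0.48) and 1.80 for SMA+SMN-C3 and SMA (-0.34 to 3.94, adjusted p = 0.67), all from limma on the log2(TPM+1) scale. The last 3 share the SMA libraries. Single libraries set these values: without SMA 1 they were 0.87, 0.29, 0.13 and 0.14, and without WT 3 the first was 0.26. Meningeal cells also express Aldh1a2. The 11 meningeal fibroblast markers summed to 5.17 to 50.3 TPM, 8 of them had a mean under 1 TPM, and Dcn, a matrix proteoglycan, was the highest at 3.21 to 23.0 TPM. Their sum was 8.68 TPM in WT 3, the library with the highest Aldh1a2, and 9.32 in SMA 1, that with the lowest. It ranged from 8.68 to 30.0 TPM in WT, 9.32 to 31.8 in SMA, 16.5 to 50.3 after MW150, 5.17 to 10.4 after Pifithrin-α and 10.5 to 13.5 after SMN-C3, and no marker was at 0 in every library. The part of meningeal cells in the Aldh1a2 values was not tested.

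Foxp1 (chr6:98925338-99522721, minus strand) was at 9.71, 8.31 and 53.1 TPM in the WT libraries and at 5.42, 29.0 and 38.0 in SMA. It was at 39.8, 31.5 and 34.5 TPM after MW150, at 32.0, 17.2 and 14.3 after Pifithrin-α and at 13.7, 25.1 and 26.7 after SMN-C3. WT 3 was the highest and SMA 1 the lowest, as for Aldh1a2. The MW150 libraries lay within 1.26-fold of each other, and the SMA libraries within 7.02-fold.

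Lhx1, the LIM factor of neurons that grow to the dorsal limb (chr11:84518284-84525535, minus strand), was at 2.01, 0.792 and 4.94 TPM in the WT libraries and at 0.276, 3.39 and 7.34 in SMA. Its values were 4.53, 4.24 and 8.07 TPM after MW150, 7.40, 1.79 and 2.35 after Pifithrin-α and 8.33, 2.81 and 2.44 after SMN-C3. SMA 1 was the lowest here too. In bulk samples such as these, fewer cells of a type and less RNA per cell cannot be told apart.

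Within groups, the SD on the log2(TPM+1) scale was 1.57 for Aldh1a2, larger than in 99.9% of the 1455 other tested genes with a mean at least as high. It was 0.96 for Foxp1 (larger than in 98.9% of 4727 such genes), 0.92 for Lhx1 (96.8% of 10590), 0.89 for Isl1 (99.0% of 2020) and 0.75 for Lhx3 (89.0% of 12605). Isl2 (0.41), Mnx1 (0.36) and Lhx4 (0.32) were under the median of all tested genes, 0.49. Beside genes with a mean at least as high, the SD of Isl2 was larger than in 51.6% of 3779. For Mnx1 this share was 40.9% of 4139 and for Lhx4 18.6% of 11141. The share of the variation that lay between the 5 groups was 14.7% for Isl1 at the lowest and 41.6% for Mnx1 at the highest, and the median over all tested genes was 34.2%.

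The question whether loss of Smn or a treatment shifted the identity genes was asked in 7 comparisons and in an F test over the 5 groups. No member was called in any of them (0 of 8 each; Benjamini-Hochberg adjusted p under 0.05 over 15425 genes, limma). Among all tested genes 0.363% were called between SMA and WT, and 0.00648%, 0.00648% and 0.0648% between SMA mice given MW150, Pifithrin-α or SMN-C3 and SMA. Against WT the same treatments gave 0.143%, 0.117% and 0.0194%, and the F test gave 0.220%. With shares this low, 0 of 8 is near the background. Of the 56 tests of a member between 2 groups, 1 had an unadjusted p under 0.05 (Mnx1, SMA+Pifithrin-α and SMA), and of the 8 F tests 0 had; over all tested genes 8.28% of the tests between 2 groups and 9.46% of the F tests did. SMA and WT were also simulated over 15425 genes with the SD within groups of each gene. Noise was drawn independently for each gene and library, without the shifts that genes of a library share. In each run 200 genes, drawn at random from those with a mean over 2 on the log2(TPM+1) scale, were changed. The test recovered 0% of genes changed by 1 on the log2 scale, 74% of those changed by 2 and 98.5% of those changed by 4. These shares describe the drawn genes and not the members. The SD within groups was over the median of all tested genes (0.49) for Aldh1a2 (1.57), Foxp1 (0.96), Lhx1 (0.92), Isl1 (0.89) and Lhx3 (0.75). The lowest limma adjusted p of the 8 members was 0.49 between SMA and WT, 1.0, 0.46 and 0.67 between the treatments and SMA, 0.53, 0.98 and 0.72 between the treatments and WT, and 0.59 in the F test. With array weights, which let single libraries count less, 2 members were called between SMA+Pifithrin-α and SMA and 4 in the F test, but so were 33.4% and 64.0% of all tested genes.

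The intervals show what sizes were not resolved. Between SMA and WT the 95% confidence intervals of Mnx1 (-0.34 to 0.99), Isl2 (-0.51 to 0.90) and Lhx4 (-1.08 to 0.37) were the narrowest. Those of Aldh1a2 (-2.94 to 1.35), Lhx1 (-1.18 to 1.54) and Foxp1 (-1.21 to 1.52) reached past 1 in both directions, that is past a doubling and a halving of TPM+1. Those of Isl1 (-0.61 to 1.89) and Lhx3 (-0.39 to 1.94) reached past a doubling, and that of Lhx4 past a halving. The members' median difference was 0.19 for SMA and WT, beside 0.24 over all tested genes, and 0.24, -0.23 and 0.18 for MW150, Pifithrin-α and SMN-C3 and SMA, beside 0.06, -0.22 and -0.23. With median-of-ratios scaling the medians over all genes were 0.04, -0.01, -0.03 and -0.01.

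**Figure D2:**
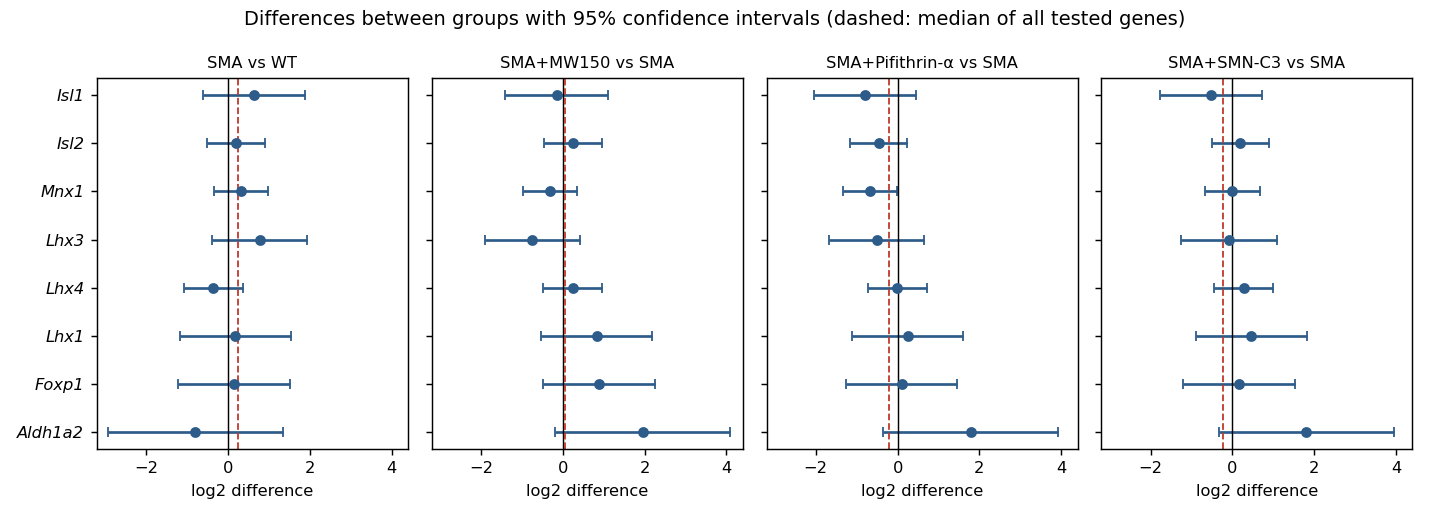
Difference of each tested member between 2 groups on the log2(TPM + 1) scale (points) with its 95% confidence interval (bars), in 4 comparisons; the dashed line is the median of all tested genes. Every interval includes 0 except that of Mnx1 between SMA+Pifithrin-α and SMA, which ends at -0.01, and those of Aldh1a2 are the widest.

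Levels of Foxp1, Aldh1a2 and Lhx1 correlated from library to library, but such values were not particular to these genes. The 3 most similar genes outside the members had r of 0.88 to 0.91 with Aldh1a2 and 0.89 to 0.92 with Foxp1. The share of all tested genes that correlated as strongly was not computed. Pearson's r of Foxp1 and Aldh1a2 on the log2(TPM+1) scale was 0.86 over the 15 libraries (permutation p adjusted over 28 pairs of members 2.8e-04), and Spearman's rho was 0.87 (adjusted p = 0.0017). It was 0.79 without WT 2 and SMA 1, the libraries farthest from the median of Foxp1, and 0.94 with group means removed (permutation p = 0.0027, adjusted 0.074). With median-of-ratios scaling r was 0.89. Lhx1 followed the same libraries: r was 0.77 with Aldh1a2 (adjusted p = 0.0070, rho 0.66, adjusted p = 0.079) and 0.75 with Foxp1 (adjusted p = 0.014, rho 0.68, adjusted p = 0.079). The r values were 0.48 and 0.47 without WT 2 and SMA 1, so they rest in large part on these libraries.

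**Figure D3:**
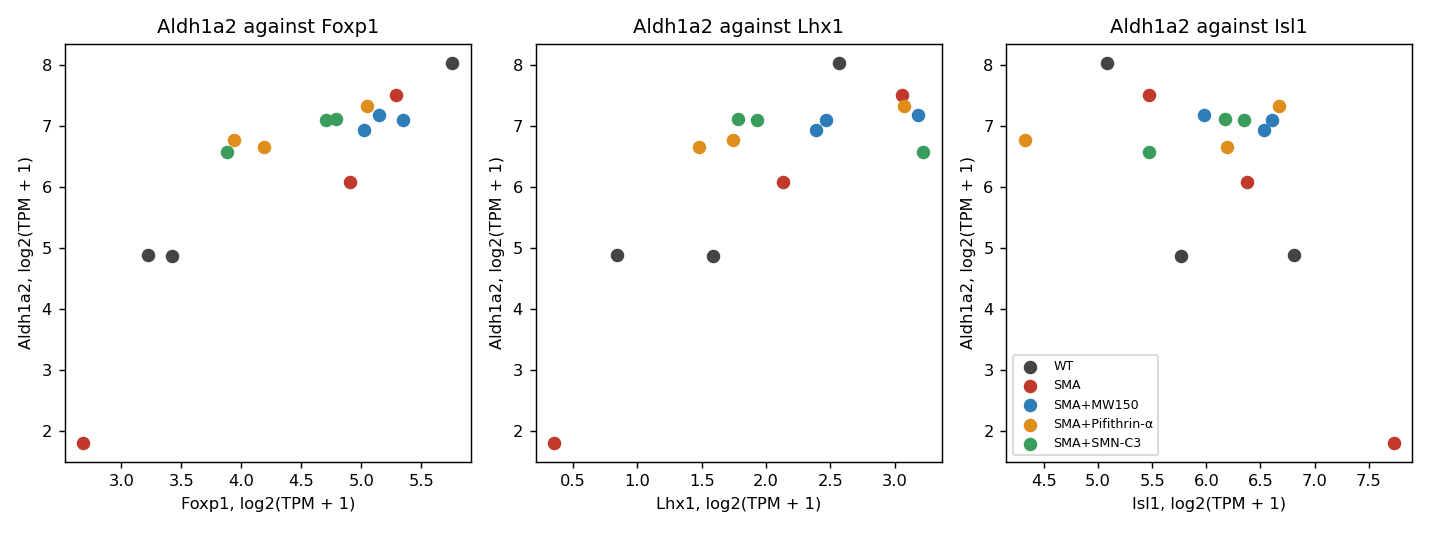
Aldh1a2 against Foxp1, Lhx1 and Isl1, each as log2(TPM + 1), 1 point per library, coloured by group. SMA 1 lies at the bottom of each panel (Aldh1a2 at 2.51 TPM) and WT 3 at the top (262 TPM), and the 3 SMA libraries are spread along the line of Foxp1 and Aldh1a2.

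Isl1 ran the other way, short of the threshold. Its r with Aldh1a2 was -0.57 (adjusted p = 0.13, rho -0.35, adjusted p = 0.50) and -0.32 without SMA 1 and SMA+Pifithrin-α 3. With median-of-ratios scaling it was -0.77, and -0.77 also without the 2 libraries of highest mitochondrial share. The ratio of Aldh1a2 to Isl1 ran from 0.0118 in SMA 1 to 7.95 in WT 3. Isl1 and Mnx1 (r 0.72, adjusted p = 0.020, rho 0.56, adjusted p = 0.16) and Isl2 and Mnx1 (r 0.74, adjusted p = 0.018, rho 0.57, adjusted p = 0.15) also passed by Pearson's r, but at 0.29 and 0.34 without 2 libraries (SMA 1 and SMA+Pifithrin-α 3 for the first, WT 1 and SMA+Pifithrin-α 3 for the second) these relations rest on them. Isl2 and Lhx4 missed the threshold (r 0.65, adjusted permutation p = 0.052, rho 0.48, adjusted p = 0.23). Their r was 0.70 without WT 1 and SMA+Pifithrin-α 3. Isl1 and Isl2 missed it too (r 0.59, adjusted permutation p = 0.086), at 0.33 without SMA 1 and SMA+Pifithrin-α 3. Of the 28 pairs, 5 passed by Pearson's r, 1 by Spearman's rho and 0 with group means removed.

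**Figure D4:**
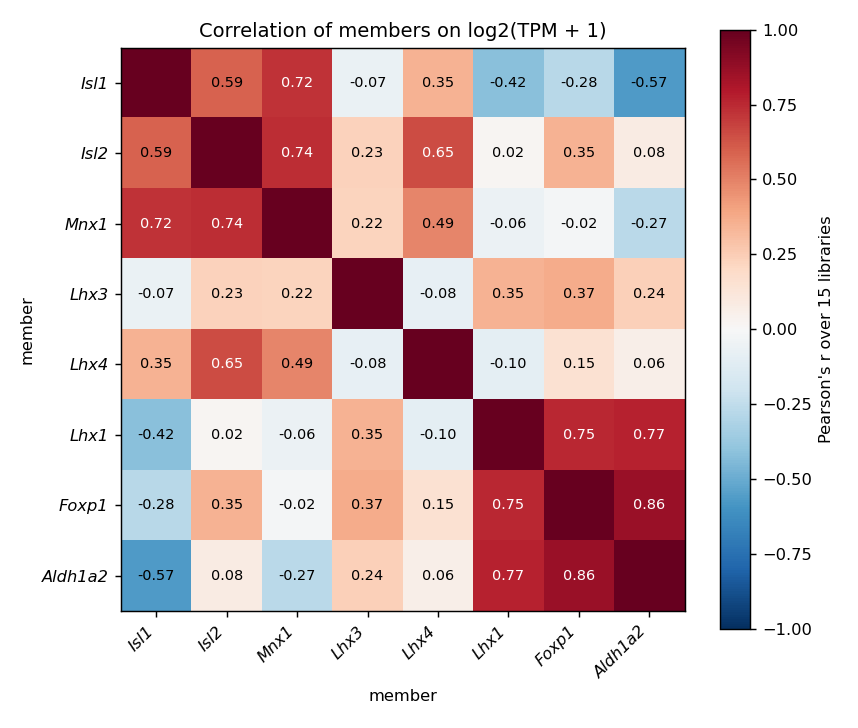
Pearson's r between the 8 tested members on the log2(TPM + 1) scale over 15 libraries (colour and number in each cell). The pairs among Foxp1, Aldh1a2 and Lhx1 have r of 0.75 to 0.86, and those among Isl1, Isl2 and Mnx1 0.59 to 0.74. Isl2 and Lhx4 (0.65) lie above Isl1 and Isl2 (0.59), and both of these pairs missed the threshold.

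The transcripts of Foxp1 differed between libraries. GENCODE M21 lists 31 of them, RefSeq gives 3 start sites, and kallisto divides reads of shared exons between transcripts, so shares are estimates. The 6 transcripts that start within 1000 bases of the downstream start (the second sequence above) summed to 0, 2.84 and 29.4 TPM in WT and to 0.641, 15.8 and 25.2 in SMA. They summed to 22.7, 18.3 and 14.7 TPM after MW150, 17.5, 2.89 and 5.35 after Pifithrin-α and 2.98, 18.0 and 16.9 after SMN-C3. They held from 0% of Foxp1 in WT 1 to 71.7% in SMA+SMN-C3 2, with a median of 54.6%.

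The 2 transcripts of the most upstream start never passed 1.77 TPM. The 4 of the middle start (the first sequence above) ranged from 0 to 8.37 TPM, with the highest value in WT 1, where they held 86.2% of the gene. All transcripts other than those of the downstream start summed to 4.78 to 23.7 TPM. Pearson's r with Aldh1a2 was 0.78 for the downstream class (permutation p = 6.2e-04, rho 0.84, p = 1.7e-04, r 0.70 without the 2 farthest libraries) and 0.74 for the other transcripts (permutation p = 6.0e-04, rho 0.66, p = 0.0084, r 0.45 without the 2 farthest). The difference between these 2 correlations was not tested, and their p-values are unadjusted.

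**Figure D5:**
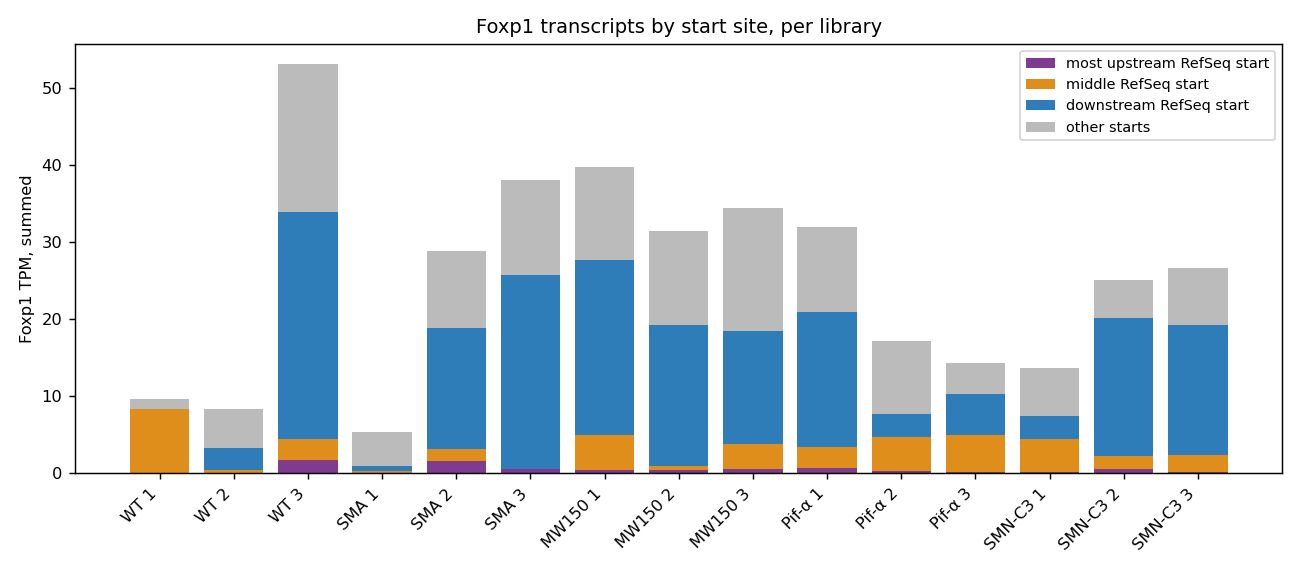
Summed TPM of Foxp1 transcripts in each library, stacked by the RefSeq start within 1000 bases of which they begin. The downstream class reaches 29.4 TPM in WT 3 and is listed at 0 in WT 1, where the middle class makes up most of the bar.

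Of the 58 transcripts of the members, 24 passed the filter, and none was called in any of the 7 comparisons or the F test (limma, adjusted over 41719 transcripts, lowest adjusted p 0.33). At an unadjusted p under 0.05 there were 2 of 24 between SMA and WT, 1 of 24 each between SMA+Pifithrin-α and SMA, SMA+SMN-C3 and SMA, and SMA+MW150 and WT and in the F test, and 0 in the other 3 comparisons. Among all transcripts 12.2% were under that p between SMA and WT, and 8.33%, 6.88% and 11.4% in the next 3 comparisons. The shares called among all transcripts were 0.221% between SMA and WT, 0.00240%, 0.00479% and 0.0120% between the treatments (in the order MW150, Pifithrin-α, SMN-C3) and SMA, 0.0911%, 0.0503% and 0.0288% between the treatments and WT, and 0.0815% in the F test. Between SMA and WT the lowest adjusted p was that of Isl2-205 (log2 difference 1.16, adjusted p = 0.33, limma). Transcripts of Isl1 with a retained intron held 0% to 26.1% of the gene. Their lowest shares were in SMA+Pifithrin-α 3 (0%), WT 1 (1.24%) and SMA+Pifithrin-α 2 (4.85%), the 3 libraries of highest mitochondrial share. Mnx1-202 held 82.6% to 100.0% of Mnx1.

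Genes around the members were read from lists, and none was called in any of the 7 comparisons with limma. At an unadjusted p under 0.05 there were 5 of 56 tests of LIM cofactors, 1 of 28 of progenitor factors, 14 of 91 of other postmitotic factors, 0 of 28 of paralogs, 14 of 105 of retinoid genes and 5 of 42 of cholinergic genes, beside 8.28% of the tests over all genes (1.90% between SMA+MW150 and SMA at the lowest, 13.5% between SMA and WT at the highest). Of the LIM cofactors, which bridge or block LIM homeodomain complexes, 8 of 8 were tested, and 7 were higher in SMA than in WT (median 0.40, all genes 0.24). After MW150, Pifithrin-α and SMN-C3, 4, 3 and 2 were higher than in SMA, and 6, 3 and 5 higher than in WT. Ssbp2 ranged from 70.6 to 187 TPM and Ssbp4 from 14.8 to 117. Of the progenitor factors 4 of 5 were tested, with Olig2 at 6.17 to 42.6 TPM and Nkx6-2 at 0.173 to 21.4. Both are also genes of oligodendrocytes, whose markers were abundant in these libraries, and the part of those cells was not tested.

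Of 14 other postmitotic and pool factors, 13 were tested, and 9 were lower in SMA than in WT (median -0.19, all genes 0.24). After MW150, Pifithrin-α and SMN-C3, 3, 7 and 12 were lower than in SMA, and 5, 11 and 10 lower than in WT. Between SMA+SMN-C3 and WT 5 of 13 had an unadjusted p under 0.05 (limma), beside 7.31% of all tested genes. Meis2, a TALE homeodomain cofactor, ranged from 26.9 to 94.5 TPM and Pbx3, another, from 22.2 to 57.9. Among 10 paralogs of the members 4 were tested, with Foxp4 at 0.876 to 7.23 TPM and Ebf4 at 1.01 to 5.87. Of 6 cholinergic and terminal genes all were tested; Prph, a peripheral intermediate filament, ranged from 541 to 2029.8 TPM and Ache, which breaks down acetylcholine, from 135 to 600.4. Of these 6, 6 were higher in SMA+SMN-C3 than in SMA (median 0.29, all genes -0.23), and the lowest adjusted p was 0.47. Between SMA and WT 3 were higher and 3 lower. After MW150 and Pifithrin-α, 4 and 2 were higher than in SMA. Against WT, 4, 2 and 5 were higher after MW150, Pifithrin-α and SMN-C3.

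The retinoid pathway around Aldh1a2 had 17 listed and 15 tested genes. Between SMA and WT 12 were higher and 3 lower (median 0.59, all genes 0.24), and between SMA+SMN-C3 and SMA 15 of 15 were lower (median -0.58, all genes -0.23); the lowest adjusted p was 0.22 and 0.40. These comparisons share the SMA libraries. After Pifithrin-α 13 were lower than in SMA (median -0.77) and after MW150 10 (median -0.15). Compared with WT, 12, 3 and 8 of the 15 were higher after MW150, Pifithrin-α and SMN-C3, and 3, 12 and 7 lower. Crabp1, which binds retinoic acid in the cytoplasm, ranged from 39.1 to 313 TPM. Markers of other cell types also differed in level between the same groups. The 11 microglia markers summed to 33.5 to 58.9 TPM in WT, 113 to 165 in SMA, 91.0 to 132 after MW150, 30.4 to 82.7 after Pifithrin-α and 51.1 to 85.3 after SMN-C3. The 10 vascular markers summed to 75.0 to 96.8, 117 to 182, 78.6 to 155, 52.6 to 98.7 and 45.9 to 91.7 TPM in the same order, and the 10 oligodendrocyte genes to 749.5 to 2275, 934 to 4659, 1049 to 6465, 488 to 1467 and 675 to 2008. None of these markers was at 0 in every library, and the part of these cells in the retinoid counts was not tested.

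The genes most like a member across the 15 libraries were found by Pearson's r over all tested genes, as a description. For Aldh1a2 they were Egln3 (r 0.91, 7.15 to 36.2 TPM), Stap1 (0.89) and Car10 (0.88), and for Foxp1 Ntm (0.92, 60.0 to 154 TPM), Cacna2d3 (0.90) and Shh (0.89). For Isl1 they were Irx5 (0.92), Wnt4 (0.92) and Pcsk2 (0.90), for Isl2 Tubb5, Reep2 and Ccdc184 (0.93 each), and for Mnx1 Zdhhc12 (0.91), Faap20 (0.90) and CAAA01147332.1 (0.90). All libraries share the scaling of TPM to a fixed total.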

How the data were processed

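The 15 libraries were low-input poly(A) libraries sequenced as paired ends, per the labels' protocols. The authors deposited TPM values per gene and per transcript; per the submitters' processing notes they came from kallisto 0.44.0 with builds GRCm38.p6 and mm10, and DESeq2 is named too. The annotation release is not given in the sources used here; 98.5% of transcripts matched GENCODE M21, from which coordinates were taken. Each member's deposited TPM equalled the sum of its transcripts. No scaling between libraries had been applied, and TPM carry no counts, so depth is unknown and no count model was used.

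The 15425 genes and 41719 transcripts that reached 1 TPM in 3 or more libraries were fitted as log2(TPM+1) with limma 3.58.1 in R 4.3.3: 1 mean per group over all 15 libraries, variances moderated with a trend, two-sided contrasts, Benjamini-Hochberg adjustment over all features, threshold 0.05. p-values measure the spread between these replicates. The fit was tested on simulated data. Correlations used 100000 permutations of libraries, within groups where group means were removed. Python 3.11.15, pandas 2.3.3, scipy 1.17.1 and matplotlib 3.10.9 were used. Alternatives were another pseudocount, filters, scalings, array weights, only the groups compared, the replicate block, the mitochondrial share as a term and each library left out. All 9 members are named; of each list the genes called in any comparison are named, or else the 2 with the highest mean TPM (1 gene that this rule gives is not reported here); and for members with a mean of at least 5 TPM the 3 most similar genes. The members and lists were chosen with earlier results of these data known.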

Additional observations from a re-analysis of the deposited data

How the results depend on the processing

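The members called stayed at 0 in every comparison with the pseudocount of 0.1, a mean of at least 5 TPM, no filter, median-of-ratios scaling, mitochondrial genes removed, only the groups compared, the mitochondrial share as a term, the replicate block and each library left out. With array weights, which let single libraries count less, 2 members were called between SMA+Pifithrin-α and SMA (Lhx3 at -1.20, adjusted p = 0.016, and Mnx1 at -0.44, adjusted p = 0.037) and 4 in the F test, and of the member transcripts 4, 2 (SMA+Pifithrin-α and WT) and 10. The same weights called 33.4% of all tested genes between SMA+Pifithrin-α and SMA and 64.0% in the F test, and of all transcripts 22.3%, 16.5% and 50.1% in these 3 tests, so these counts are read against that background; the cause was not tested. Over all genes, with neither array weights nor a library left out singly, the number called between SMA and WT was 56, 7 to 88 under the other settings; for the 3 treatments and SMA it was 1, 1 and 10, with 0 to 2, 0 to 3 and 0 to 166; for the treatments and WT 22, 18 and 3, with 12 to 42, 0 to 40 and 2 to 9; and for the F test 34, with 17 to 131. Leaving out any 1 of the 15 libraries, these counts were 20 (without SMA 1) to 114 (without SMA+Pifithrin-α 3) between SMA and WT, 0 to 2, 0 to 1 and 0 to 20 between the treatments and SMA, 9 to 37, 5 to 30 and 2 to 8 between the treatments and WT, and 20 to 47 in the F test.

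None of the 56 member differences was called, and 29 of them had the opposite sign under at least 1 alternative (82 of 875 values); 27 kept their sign in all. With median-of-ratios scaling, the values of opposite sign were Foxp1 -0.07 and Isl2 -0.05 between SMA and WT, Lhx4 0.17 between SMA+Pifithrin-α and SMA, Lhx3 0.09 between SMA+SMN-C3 and SMA, Lhx3 -0.08 and Mnx1 -0.31 between SMA+MW150 and WT. Without mitochondrially encoded genes, the values of opposite sign were Lhx4 0.08 between SMA+Pifithrin-α and SMA, Mnx1 -0.09 between SMA+MW150 and WT. With array weights, the values of opposite sign were Isl2 -0.10 between SMA and WT, Isl1 0.11 between SMA+MW150 and SMA, Foxp1 -0.37, Lhx1 -0.68 and Lhx4 0.38 between SMA+Pifithrin-α and SMA, Lhx1 -0.06 between SMA+SMN-C3 and SMA, Lhx3 -0.14 and Mnx1 -0.09 between SMA+MW150 and WT, Lhx3 -0.32 and Lhx4 0.05 between SMA+Pifithrin-α and WT, Isl1 -0.13 and Lhx4 0.07 between SMA+SMN-C3 and WT. With the mitochondrial share as a term, the values of opposite sign were Foxp1 -0.25, Isl2 -0.26 and Mnx1 -0.02 between SMA and WT, Isl2 0.03 and Lhx4 0.17 between SMA+Pifithrin-α and SMA, Lhx3 0.05 between SMA+SMN-C3 and SMA, Isl1 -0.05, Lhx3 -0.30 and Mnx1 -0.29 between SMA+MW150 and WT, Isl1 -0.27 between SMA+SMN-C3 and WT. Without the 2 libraries with the highest mitochondrial share (chosen after seeing the data), the values of opposite sign were Foxp1 -0.20 and Isl2 -0.11 between SMA and WT, Lhx4 0.26 between SMA+Pifithrin-α and SMA, Lhx3 -0.31 and Mnx1 -0.10 between SMA+MW150 and WT, Isl1 0.48 between SMA+Pifithrin-α and WT, Foxp1 -0.03 between SMA+SMN-C3 and WT. Leaving out 1 library at a time, the ranges that crossed 0 between SMA and WT were Aldh1a2 -1.98 to 0.87, Foxp1 -0.34 to 0.97, Isl2 -0.11 to 0.38 and Lhx1 -0.42 to 0.93. They were Isl1 -0.68 to 0.45 between SMA+MW150 and SMA. They were Foxp1 -0.71 to 0.60, Lhx1 -0.50 to 0.86 and Lhx4 -0.19 to 0.26 between SMA+Pifithrin-α and SMA. They were Foxp1 -0.64 to 0.67, Isl1 -1.06 to 0.08, Lhx1 -0.29 to 1.07, Lhx3 -0.43 to 0.25 and Mnx1 -0.13 to 0.12 between SMA+SMN-C3 and SMA. They were Lhx3 -0.42 to 0.61, Lhx4 -0.35 to 0.05 and Mnx1 -0.14 to 0.12 between SMA+MW150 and WT. They were Foxp1 -0.20 to 1.07, Isl1 -0.63 to 0.54, Isl2 -0.57 to 0.03, Lhx1 -0.06 to 0.88, Lhx3 -0.11 to 0.84 and Mnx1 -0.64 to 0.02 between SMA+Pifithrin-α and WT. They were Foxp1 -0.13 to 1.14, Isl1 -0.29 to 0.57 and Lhx4 -0.23 to 0.02 between SMA+SMN-C3 and WT.

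Correlations were recomputed under alternatives chosen after seeing the data. Foxp1 and Aldh1a2 missed the threshold in 1 of these, with group means removed (r 0.94). The others that missed it there were Lhx1 and Aldh1a2 (0.78), Lhx1 and Foxp1 (0.71), Isl1 and Mnx1 (0.80) and Isl2 and Mnx1 (0.75). Without 1 library r ranged from 0.65 to 0.81 and from 0.63 to 0.89 for the Lhx1 pairs, missing the threshold without SMA 1, from 0.49 to 0.79 for Isl1 and Mnx1 (missing it without SMA 1 or SMA+Pifithrin-α 3) and from 0.51 to 0.77 for Isl2 and Mnx1 (without SMA+Pifithrin-α 3). These last pairs also missed it with median-of-ratios scaling (0.54, 0.59), without mitochondrial genes (0.67, 0.64) and without the 2 libraries of highest mitochondrial share (0.46, 0.34).

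No pairing of the libraries by replicate number was seen. Same-numbered libraries of different groups had correlations of their deviations between -0.34 and 0.29 (median 0.01, 30 pairs). The median was also 0.01 for libraries of other numbers, and 4 of 15 libraries were closest to one of their own number. With 3 libraries per group these values cannot show that no pairing existed. With the replicate block, 0 members and 0 member transcripts were called, and 48 genes between SMA and WT. TPM carry no depth, so no limit of detection can be given.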

Other observations

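Hoxc10, a Hox gene of lumbar motor neurons that was chosen after its values were seen, was at 20.3, 30.3 and 64.5 TPM in the WT libraries and at 23.0, 37.1 and 47.1 in SMA. The library order in WT and SMA is that of Aldh1a2; after Pifithrin-α and SMN-C3 it is not. In the treated groups it was at 42.2, 38.5 and 42.3 TPM after MW150, 41.4, 35.2 and 25.7 after Pifithrin-α and 47.0, 43.2 and 38.5 after SMN-C3.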
